A study of Drosophila simulans with 22 samples.

Results

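The comparison set embryos of 13-16 h against embryos of 9-12 h in a time series of promoter activity in Drosophila simulans. The 13-16 h window held the samples collected at 13-14, 14-15 and 15-16 h after egg laying, and the 9-12 h window those collected at 9-10, 10-11 and 11-12 h, so that 6 of the 22 hourly samples entered. The windows were set by the hours on the labels, and the very shallow 12-13 h sample between them was left out of both. All 6 samples came from the same strain, w[501], the strain of the reference genome, with no treatment or mutation in either window. Each sample was a pool of whole, staged embryos laid in population cages. Each hour was sampled once, so neighbouring hours stood in for replicates: any steady change inside a window counted as error, and p-values measured the spread between hours. Since RNA came from whole embryos, fewer cells of a type and less RNA per cell cannot be told apart.

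In D. melanogaster, the close relative in which embryogenesis is best described, the earlier window takes in the end of germ band retraction and the start of dorsal closure, when organ primordia are laid out. The later window is when muscles attach and build contractile fibres, axon tracts form, and epidermis and tracheae secrete cuticle. Promoters of patterning and cell division genes are generally active before that time and those of differentiated cell products after it.

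The assay was RAMPAGE, which sequences cDNAs that reach the capped 5′ end of the transcript, so that reads pile up at transcription start sites. Each peak of such starts, a transcription start site cluster or TSC, stands for a promoter. Levels are in RPM, for which the reads of a TSC are divided by all reads in the TSCs of the same sample and brought to the same total in every sample. The deposited list held 25410 TSCs, of which 17370 were assigned to a gene. It lists a peak once for each gene it was assigned to: 269 peaks stood under 2 or more genes, so that 277 TSCs repeated a peak, and these repeats held 0.471% to 0.686% of reads in the 6 samples. None of the 9322 gene numbers in the list matched the table of gene names used here, so TSCs are named by their position on FlyBase build r1.4, counted from 1, gene lists and tissue markers could not be checked, and no promoter sequence is shown.

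The 13-16 h samples held 1695085, 1135813 and 2928231 reads in TSCs, and the 9-12 h samples 17206157, 3556195 and 1909772. At these depths 1 read was worth 0.0581 to 0.880 RPM. Samples were compared by the Spearman correlation of their log2(RPM + 1) values, which was 0.839 to 0.855 within the 13-16 h window, 0.852 to 0.909 within the 9-12 h window and 0.732 to 0.842 between them.

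The first question was which promoters changed. Of 12044 TSCs with a mean of at least 2 RPM over the 6 samples, 1080 rose in 13-16 h embryos (8.97% of those tested) and 1262 fell (10.5%), at an adjusted p of 0.05 in limma on log2(RPM + 1) with Benjamini-Hochberg adjustment; called TSCs together made up 19.4%. The median change was 2.29 on the log2 scale for those that rose and -1.86 for those that fell, and the smallest change of any called TSC was 1.06. A change of at least 3 on the log2 scale was found for 217 TSCs that rose and 112 that fell. The tested TSCs included 152 repeats of a peak, of which 15 rose and 13 fell. With each peak kept once, an alternative chosen after seeing the data, 1059 of 11892 rose and 1237 fell. The hours of the windows did not overlap for 2301 of the 2342 called TSCs, and for 43.3% of all tested TSCs.

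The balance of directions depended on how samples were scaled. The median change of all tested TSCs was -0.53 on the log2 scale with RPM as deposited. TMM scaling, which sets aside TSCs with the most extreme ratios between samples or levels, moved it by 0.24 to -0.30. The share of calls that rose was 46.1% with RPM as deposited, 57.3% with TMM, 69.2% with DESeq2 size factors and 61.3% with edgeR on recovered reads. Of all tested TSCs, 1213 rose (10.1%) and 905 fell (7.51%) with TMM, or 17.6% in all, 1328 rose (11.0%) and 591 fell (4.91%) with DESeq2 size factors, 15.9% in all, and 1225 rose (10.2%) and 775 fell (6.43%) in edgeR, 16.6% in all. Under all 4 of these, 984 of the TSCs that rose and 574 of those that fell kept their call, and no call turned to the other direction under TMM. The sample that stood apart in this respect was 15-16 h, with a TMM factor of 0.679, against 0.973 to 1.15 in the other 5 samples. The fits without it also have fewer samples, so the part of its scaling in the calls was not tested.

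**Figure D1:**
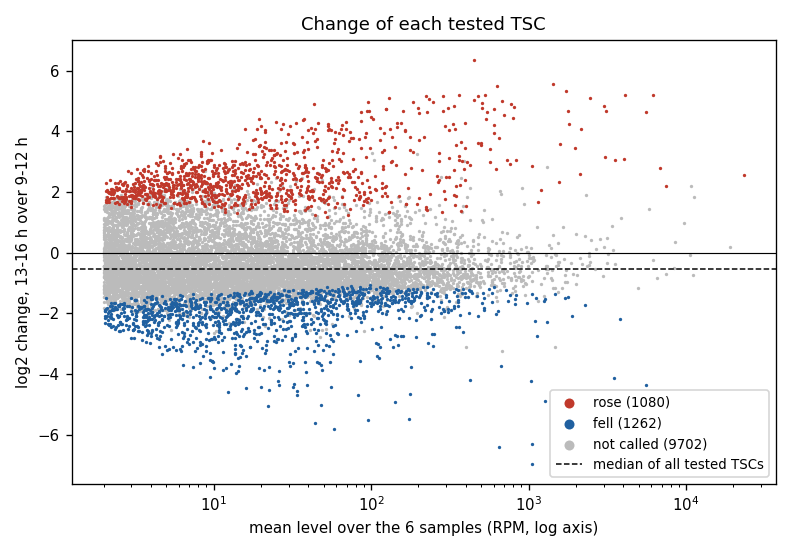
Each point is a TSC tested in the comparison of 13-16 h with 9-12 h embryos: the horizontal axis is its mean level over the 6 samples in RPM (log axis) and the vertical axis its log2 change. The 1080 TSCs that rose and the 1262 that fell lie around a median of -0.53, drawn as the dashed line, and calls of both directions occur among weak and strong TSCs.

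The number of calls depended on which hours were used. Without 13-14 h, the hour of the later window nearest to the earlier one, 1186 TSCs rose and 3106 fell, and without 11-12 h the counts were 1171 and 1061. Leaving out any of the other hours cut them: 540 rose and 494 fell without 14-15 h, 382 and 251 without 15-16 h, 405 and 210 without 9-10 h, and 436 and 233 without 10-11 h. The TSCs called the same way in all 6 of these fits and in the full one were 280 that rose and 146 that fell.

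Among risen promoters assigned to a gene, the 8 with the largest gain in RPM lay on 3 chromosome arms. The strongest was 3L:5626830-5626956 on the minus strand (gene number FBgn0184875), with 23836, 14544 and 82975 RPM in the 13-16 h samples, against 8276, 8197 and 2020 RPM in the 9-12 h samples. It was high in every hour, highest at 15-16 h and lowest at 11-12 h. Its change of 2.57 ± 0.72 (SE) on the log2 scale had an adjusted p of 0.0317 in limma, but the call was lost with TMM scaling (2.84, adjusted p = 0.0547), in edgeR (adjusted p = 0.0600) and without 15-16 h (adjusted p = 0.131), 9-10 h (0.0718), 10-11 h (0.0556) or 11-12 h (0.0779). The next by gain among gene-assigned TSCs, 3L:10276475-10276572 on the plus strand (FBgn0185949), had 1799, 12799.6 and 17706 RPM in the 13-16 h samples, against 134, 204 and 934 RPM in the 9-12 h samples. Its 13-14 h value lay closer to the 11-12 h value than to the 15-16 h value on the log scale. In RPM most of the gain fell within the later window, but the level had also risen from hour to hour within the earlier one. The change was 4.65 ± 0.87 (SE) with an adjusted p of 0.00671 in limma, and adjusted p without an hour ran from 0.00121 to 0.0554, the highest without 15-16 h.

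A further group of risen promoters shared this climb inside the later window. The TSC at 3L:4646169-4646432 (plus strand) had 1262, 6306 and 10341 RPM at 13-16 h, against 74.3, 104 and 618 RPM at 9-12 h. Values at 3L:7661718-7662008 (plus) were 1424, 3704 and 12408 RPM at 13-16 h and 91.5, 68.6 and 435 RPM at 9-12 h. Both had their lowest later hour at 13-14 h and their highest earlier hour at 11-12 h, with changes of 4.68 and 4.84 on the log2 scale (limma adjusted p = 0.00632 and 0.00483). The TSC at 3L:20647224-20647518 (plus) had 1304, 7163 and 13934 RPM at 13-16 h, against 602, 445 and 813 RPM at 9-12 h. At 2R:11788583-11788786 (minus) the levels were 2994, 4251 and 11911 RPM at 13-16 h and 774, 610 and 578 RPM at 9-12 h. These differed less between the earlier hours than between the later ones, and changed by 3.07 and 3.04 on the log2 scale (limma adjusted p = 0.0162 and 0.00498). The call was lost without 15-16 h for 3L:4646169 (adjusted p = 0.0535, range without an hour 0.000606 to 0.0535), and without 14-15 h, 15-16 h, 9-10 h or 10-11 h for 3L:20647224 (0.0676, 0.0780, 0.0562 and 0.0553, lowest value 0.00522).

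The remaining 2 of the 8 differed in the timing of the gain. At 2R:5718754-5718963 (minus), 1 of 2 tested promoters of its gene, 7413, 7041 and 22800 RPM were measured at 13-16 h, against 2686, 3478 and 1294 RPM at 9-12 h. Its change of 2.21 ± 0.56 (SE) had an adjusted p of 0.0224 in limma, which ran from 0.0206 to 0.0832 without an hour, with the call lost without 15-16 h, 9-10 h (0.0782) or 11-12 h (0.0567). At 2L:16466300-16466561 (plus), 1 of 4 tested promoters of its gene, the levels were 4768, 5946 and 5660 RPM at 13-16 h, against 484, 1084 and 423 RPM at 9-12 h. Its 3 later hours lay close to each other, and all stood well above the 3 earlier hours, of which 10-11 h was the highest. It was at 4498 RPM (95% Wilson interval 4273 to 4735) in the intervening 12-13 h sample, which the test did not use, and its change of 3.16 ± 0.44 (SE) kept its call without each hour (limma adjusted p = 0.00356).

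The largest relative gains among gene-assigned promoters were at TSCs with low levels in at least the first 2 hours of the earlier window. The TSC at 3R:22651813-22651945 (plus) had 274, 1028 and 1364 RPM at 13-16 h, against 8.78, 3.66 and 15.2 RPM at 9-12 h. The gain of 6.33 ± 0.62 (SE) on the log2 scale was the largest rise among the named TSCs (limma adjusted p = 0.00141). The 47 bp TSC at 2R:6288538-6288584 (minus) had 580, 3973 and 3682 RPM at 13-16 h, against 7.61, 30.7 and 301 RPM at 9-12 h. Values at 3L:7675785-7675857 (minus) were 266, 863 and 2573 RPM at 13-16 h and 11.7, 8.15 and 56.6 RPM at 9-12 h. At X:10820585-10820704 (plus) they were 1035, 1750 and 7101 RPM at 13-16 h and 13.6, 29.2 and 450 RPM at 9-12 h. The last 3 changed by 5.55, 5.48 and 5.33 on the log2 scale, and in each the 11-12 h sample was the highest of the earlier window. Of these 4, 2R:6288538 and X:10820585 lost their call without 15-16 h (adjusted p = 0.0681 and 0.0704), and X:10820585 also in edgeR (adjusted p = 0.0531).

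Promoters with no gene assignment showed gains of the same order. The 250 bp TSC at 2L:20818235-20818484 (minus) had 3218, 14960 and 17773 RPM at 13-16 h, against 100.3, 172 and 1003 RPM at 9-12 h. Its 13-16 h mean of 11983 RPM was near the 10768 RPM of the gene-assigned 3L:10276475 and below the 40452 RPM of 3L:5626830. The change at 2L:20818235 was 5.19 ± 0.83 (SE, limma adjusted p = 0.00455), and the call was kept without each hour. The 41 bp TSC at 3R:22700315-22700355 (plus) ran the other way within the later window, with 1048, 575 and 265 RPM at 13-16 h, against 10.1, 20.8 and 138 RPM at 9-12 h. The TSC at 3R:22279222-22279471 (minus) had 241, 473 and 919 RPM at 13-16 h, against 9.47, 10.4 and 52.4 RPM at 9-12 h.

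After the windows, the named risen promoters parted ways. Levels at 3L:5626830 averaged 165975 RPM over the 16-17, 17-18 and 18-19 h samples, and those at 2R:5718754, 3L:20647224 and 2R:11788583 averaged 41415, 16585 and 18108 RPM, all above every hour of the 13-16 h window. By contrast 2R:6288538 averaged 283 RPM at 16-19 h and had 8.27 RPM at 18-19 h, 3R:22651813 averaged 184 RPM and 3R:22700315 averaged 42.7 RPM. The 13-16 h window was thus the time of highest signal for these last 3 promoters and a step on a longer climb for the first 4. Mean levels at 6-9 h were 16.0 RPM at 2R:6288538, 3.11 RPM at 3R:22651813 and 0.984 RPM at 3R:22700315, and 292 to 2546 RPM at the 4 that climbed on.

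**Figure D2:**
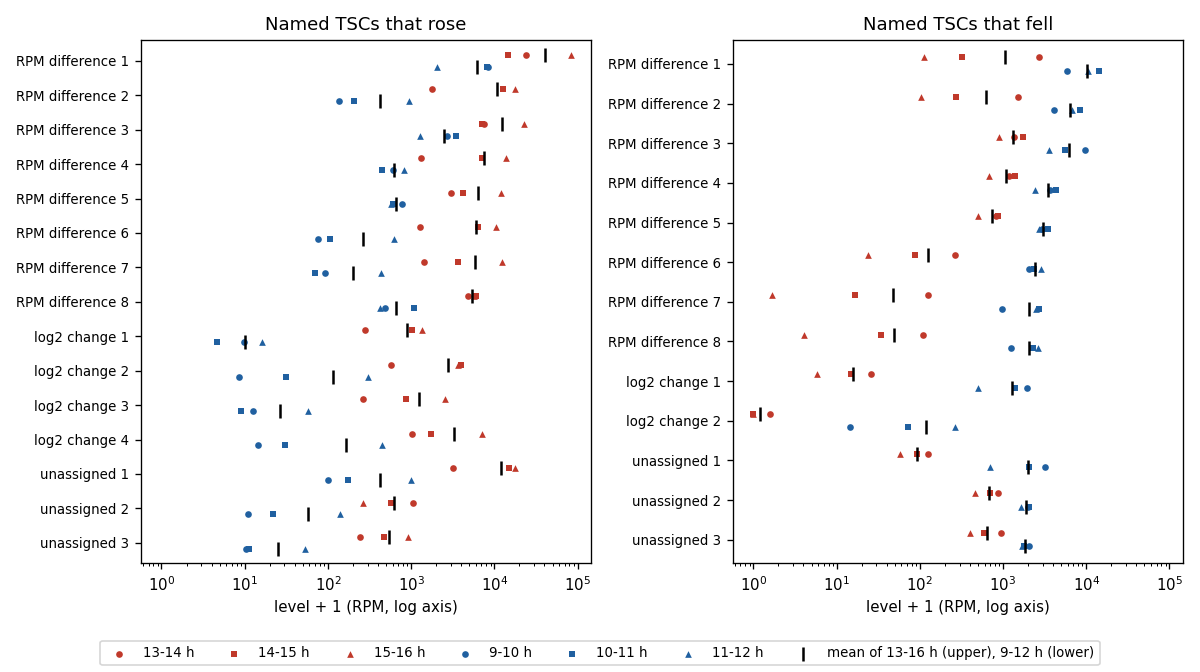
Level of each named TSC in the 6 samples in RPM plus 1 (log axis), with 13-16 h samples in red above 9-12 h samples in blue, marker shapes for the hours, and black ticks for the means. Rows give the TSCs with the largest RPM difference, the largest log2 change and no gene assignment, and the 3 red and 3 blue points of a row never overlap, as the naming rule required.

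Both fallen gene-assigned promoters with the largest loss in RPM had their highest value of the 6 samples at 10-11 h and their lowest at 15-16 h. The TSC at 3L:921893-922070 (minus, FBgn0185195) had 2727, 325 and 110.0 RPM at 13-16 h, against 5817, 14161 and 10468 RPM at 9-12 h. Values at 3L:1255563-1255769 (plus, FBgn0185348) were 1501, 275 and 102 RPM at 13-16 h and 4070, 8356 and 6750 RPM at 9-12 h. In both the 13-14 h sample kept an intermediate level and the loss deepened with each later hour, with changes of -4.36 ± 0.91 and -4.13 ± 0.78 (SE, limma adjusted p = 0.0105 and 0.00701). The call at 3L:921893 was lost in edgeR (adjusted p = 0.0526) and without 14-15 h (0.0510) or 15-16 h (0.0595, lowest value without an hour 0.00477). At 12-13 h, 3L:921893 still had 9375 RPM (95% Wilson interval 9048 to 9713).

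Several others were lost almost entirely. The TSC at 3L:5109877-5110098 (minus) had 124, 15.8 and 0.683 RPM at 13-16 h, of which the last was 2 reads, against 967, 2730 and 2514 RPM at 9-12 h. Values at X:531893-531994 (minus) were 109, 33.5 and 3.07 RPM at 13-16 h and 1248, 2291 and 2602 RPM at 9-12 h. Both lost more signal with each later hour, and changed by -6.95 ± 1.15 and -6.29 ± 0.91 (SE, limma adjusted p = 0.00483 and 0.00366). At 3L:12775379-12775525 (plus) the levels were 264, 85.4 and 22.5 RPM at 13-16 h and 2070, 2384 and 2822 RPM at 9-12 h. The TSC at X:1289179-1289255 (plus) had 24.8, 14.1 and 4.78 RPM at 13-16 h, against 1931, 1403 and 505 RPM at 9-12 h, and its decline had begun within the earlier window. The weakest of the group, 2R:19093501-19093573 (plus), had 0.590, 0 and 0 RPM at 13-16 h, or 1 read in 5759129, against 13.5, 71.1 and 265 RPM at 9-12 h, or 992 reads in 22672124. The pooled ratio was 252-fold lower at 13-16 h with an exact 95% counting interval of 45.1 to 9963, and the 2 hours at 0 reads allow up to 2.64 and 1.02 RPM. All 5 of these calls were kept without each hour. By 16-19 h the first 4 of these promoters averaged between 1.49 and 9.14 RPM.

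The other named gene promoters that fell lost a smaller part of their signal. The TSC at 3R:13952312-13952460 (plus) had 1355, 1713 and 899.5 RPM at 13-16 h, against 9689, 5508 and 3610 RPM at 9-12 h. At 2L:6763583-6763753 (minus) the levels were 1167, 1378 and 683 RPM at 13-16 h and 3695, 4327 and 2400 RPM at 9-12 h. These were strong in the first hours of development too, with means of 6839 and 3924 RPM at 0-3 h. The TSC at X:5397932-5398125 (minus), 1 of 4 tested promoters of its gene, had 818, 862 and 505 RPM at 13-16 h, against 2936, 3511 and 2721 RPM at 9-12 h. The changes of these 3 were -2.17, -1.71 and -2.10 on the log2 scale (limma adjusted p = 0.0121, 0.0213 and 0.00658). The call was lost at 3R:13952312 without 15-16 h (0.0598) or 9-10 h (0.0756), with values from 0.00656, and at 2L:6763583 without 15-16 h (0.0741), 9-10 h (0.101) or 10-11 h (0.109), with values from 0.0179.

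The unassigned TSC at 3L:14287545-14287842 (minus) had 124, 92.4 and 56.7 RPM at 13-16 h, against 3227, 2032 and 692 RPM at 9-12 h, a change of -4.24 ± 0.55 (SE, limma adjusted p = 0.00356). It had averaged 4005 RPM at 6-9 h, so that its loss was under way before 9 h and ran through both windows. The unassigned TSCs at 3L:8489106-8489227 (minus) and X:14872725-14872967 (plus) had 877, 693 and 454 RPM, and 955, 586 and 398 RPM, at 13-16 h, against 2001, 2040 and 1623 RPM, and 2050, 1793 and 1693 RPM, at 9-12 h. Their changes of -1.53 and -1.60 (limma adjusted p = 0.0225 and 0.0232) lost the call without any of 14-15, 15-16, 9-10 or 10-11 h, with adjusted p between 0.0108 and 0.108 and between 0.00816 and 0.108. The signal at 3L:8489106 was highest of all at the end of the series, with 2307 RPM at 21-22 h.

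All 15 named TSCs that rose and all 13 that fell kept their direction under every alternative tried. The naming rule asked for windows that did not overlap and a change of at least 1 on the log2 scale. Fits without an hour therefore could not reverse a direction, and the other alternatives had little room to, so this is no test of the directions. Of the 15, 14 were called under TMM, 15 under DESeq2 size factors and 13 by edgeR, and of the 13, 13, 13 and 12. Without 1 hour, 8 in each direction kept the call throughout. The half-width of the 95% Wilson interval was under 10% of the value for 127 of the 166 values above 0, with a median of 4.31%; it covers counting error only.

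The risen promoters came to hold a large share of the reads by 15-16 h. TSCs that rose held 14.0%, 24.9% and 41.9% of reads in the 13-14, 14-15 and 15-16 h samples, against 2.52%, 2.95% and 4.01% in the 9-10, 10-11 and 11-12 h samples. TSCs that fell held 6.31%, 4.54% and 3.12% in the 13-16 h samples, against 18.8%, 18.6% and 14.3% in the 9-12 h samples. Both series ran in the same direction in every hour, with the 12-13 h sample in between at 7.42% and 9.60%. Since these samples chose the TSCs, the shares are a description. The 10 strongest risen TSCs alone took 5.00%, 9.30% and 22.1% of reads in the 13-16 h samples, and 1.50%, 1.54% and 0.913% in the 9-12 h samples.

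**Figure D3:**
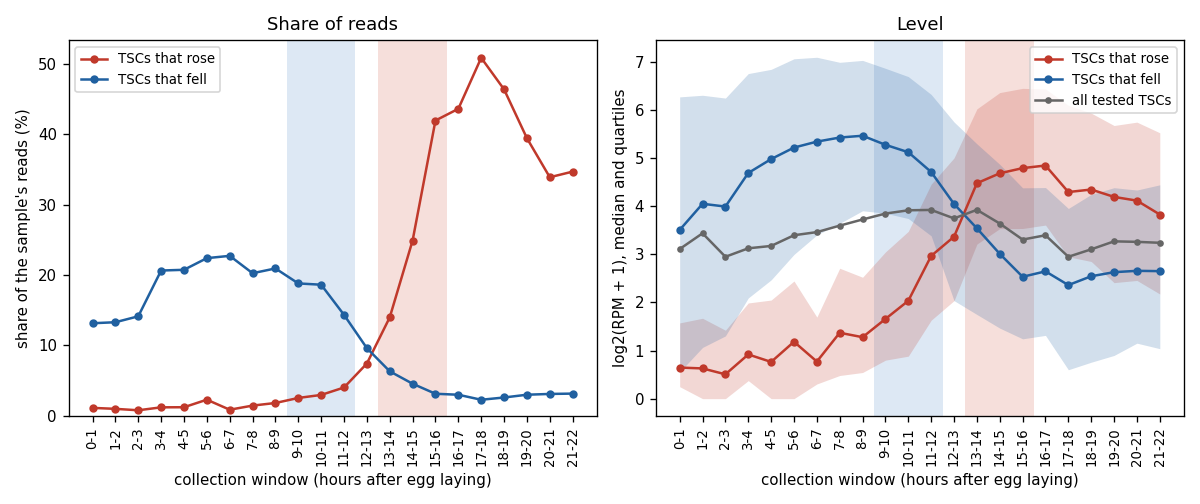
Left, the share of each sample's reads (%) held by the TSCs that rose (red) and fell (blue) over the 22 hourly samples; right, their median level as log2(RPM + 1) with quartiles shaded, and the median of all tested TSCs in grey. The shaded columns mark the 13-16 h (red) and 9-12 h (blue) windows: the share of risen TSCs went on to 50.9% at 17-18 h, and that of fallen TSCs was highest at 6-7 h, with 22.7%.

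The hours outside the windows took no part in the calls, so that a comparison of 16-19 h with 6-9 h did not use the samples that chose the TSCs. These hours border the windows, where levels may follow those of neighbouring hours, so this comparison is a description too. The mean level at 16-19 h was above that at 6-9 h for 99.3% of the TSCs that rose, 1.82% of those that fell and 35.0% of all tested TSCs. The values that follow use window hours as well and are also a description. At 16-19 h against 13-16 h the risen TSCs had a median change of -0.0043 on the log2 scale, against -0.53 for all tested TSCs. Of the risen TSCs 13.4% were at least 2-fold higher at 16-19 h, against 4.76% of all tested TSCs. At least 2-fold lower were 20.3% of the risen and 23.8% of all tested TSCs. Before the windows, 47.4% of the TSCs that rose were already at least 2-fold higher at 9-12 h than at 6-9 h, against 22.6% of all tested TSCs. Of the 1080 TSCs that rose, 440 had their highest value of the series within 13-16 h, 359 within 16-19 h and 235 within 19-22 h. As shares of the risen TSCs these were 40.7%, 33.2% and 21.8%, against 15.3%, 6.24% and 8.35% of all tested TSCs. The 1262 TSCs that fell had their highest value within 0-3 h in 243 cases, 3-6 h in 326, 6-9 h in 328 and 9-12 h in 320. These were 19.3%, 25.8%, 26.0% and 25.4% of the fallen TSCs, and over all tested TSCs the shares were 26.4%, 12.9%, 10.4% and 12.1%.

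The width of the TSC went with the direction of change. Median widths were 38 bp for TSCs that rose, 107 bp for those that fell and 94 bp for all tested TSCs, and the quartiles were 22 and 98 bp for the risen and 68 and 161 bp for the fallen TSCs. Of the 3103 tested TSCs up to 50 bp wide, 19.8% rose and 7.48% fell, and of the 8941 wider TSCs 5.20% rose and 11.5% fell. In finer classes the share that rose was 20.9% at 1-25 bp, 18.6% at 26-50 bp, 5.71% at 51-100 bp, 5.05% at 101-200 bp and 4.42% over 200 bp. Width came from peaks called by the authors on the reads of the whole series, these samples included, so that it was not independent of the strength of a TSC. Among TSCs of similar mean RPM over the 6 samples the difference was seen in each class. At a mean of at least 50 RPM, 35.0% of narrow and 6.25% of wide TSCs rose. The shares were 25.9% and 5.71% at 10 to 50 RPM, and 15.4% and 3.77% below that. These classes do not equalize reads over the whole series, on which peaks were called. Width and the number of reads behind a peak thus cannot be told apart. Without 15-16 h, 6.93% of narrow TSCs rose, against 1.87% of wide ones, and the narrow share was the higher one in each of the 6 fits without an hour, in TMM and in edgeR. For falls, the order of narrow and wide TSCs was not stable: without 9-10 h, 2.09% of narrow and 1.62% of wide TSCs fell, and without 10-11 h 1.97% and 1.92%.

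**Figure D4:**
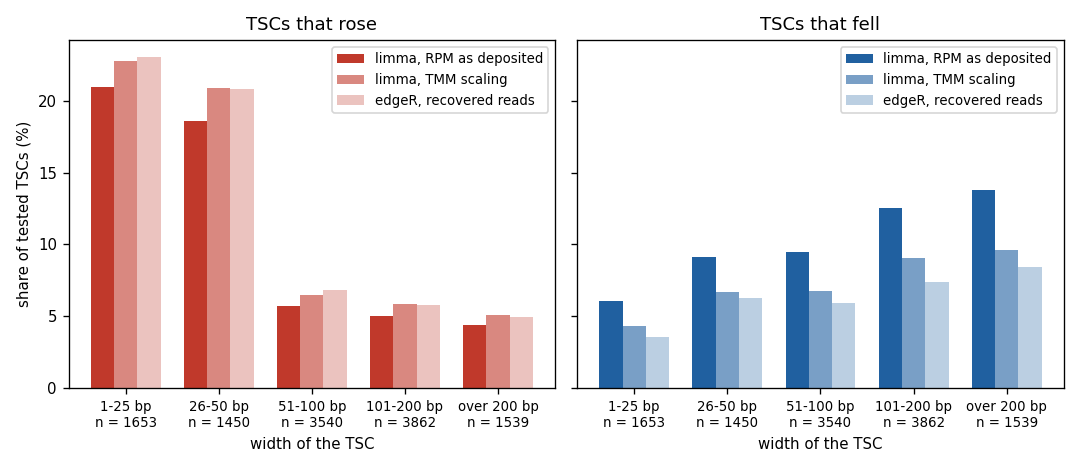
Share of tested TSCs (%) that rose (left) and fell (right) in 5 classes of TSC width, for limma on RPM as deposited, limma with TMM scaling and edgeR on recovered reads; n is the number of TSCs tested in the class. In limma on RPM as deposited the share that rose was 20.9% in the narrowest class and 4.42% in the widest.

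Shares were also counted by gene assignment. Of 9667 gene-assigned TSCs 8.75% rose and 10.3% fell, and of 2377 unassigned TSCs 9.84% rose and 11.3% fell. The 1240 unassigned TSCs on placed chromosomes had shares of 11.2% that rose and 11.5% that fell, and with TMM 14.2% of them rose, against 9.64% of gene-assigned TSCs. They were also narrower, with a median width of 73 bp against 95 bp. Among TSCs up to 50 bp wide the TMM shares that rose were 22.3% of these and 22.2% of gene-assigned TSCs. Among wider TSCs they were 9.01% and 5.67%. By chromosome, the share that rose was between 7.24% on X and 11.3% on 3L, against 8.97% of all tested TSCs. On chromosome 4, 10 of the 93 tested TSCs rose and 10 fell (10.8% each), near the 8.97% and 10.5% of all tested TSCs.

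Some changed promoters were neighbours. Counting runs of at least 4 consecutive tested TSCs called the same way on a placed chromosome, with each peak kept once, there were 22 runs of TSCs that rose, with 104 TSCs, and 11 runs of TSCs that fell, with 48. The longest rising run held 9 TSCs of 4 genes at 2L:13675471-13722626, all on the minus strand, which together had 156, 512 and 1099 RPM at 13-16 h, against 41.2, 39.4 and 44.0 RPM at 9-12 h. Of these sums 1 TSC held 35.4, 216 and 744 RPM at 13-16 h, and 31.7, 20.8 and 6.28 RPM at 9-12 h. Arm 3L held 3 runs close together: 4 TSCs at 15597318-15601129, 6 at 15609832-15624631 and 6 at 15631984-15653025. Their summed levels were 1303, 2489 and 5257 RPM, 986, 4961 and 4645 RPM, and 1992, 7784 and 15584 RPM at 13-16 h, against 131, 106 and 284 RPM, 59.5, 40.2 and 646 RPM, and 522, 394 and 929 RPM at 9-12 h. The mean sum at 16-19 h was 8406, 2474 and 14840 RPM in the same order, against 3016, 3531 and 8453 RPM at 13-16 h. Only the second was thus lower at 16-19 h than at 13-16 h. From 19-20 h on, every TSC of the first run stood lower than at 18-19 h. Near the strongest riser of the comparison, a run of 7 TSCs of 7 genes at 3L:5630725-5644897 had 1774, 2029 and 5771 RPM at 13-16 h, against 269, 565 and 327 RPM at 9-12 h. A run of 4 TSCs of 4 genes at 3R:152082-163180 was a brief one, with 3303, 8509 and 1856 RPM at 13-16 h, against 113, 58.8 and 783 RPM at 9-12 h, and a mean of 210 RPM at 16-19 h. Of these sums 1 TSC held 2891, 6509 and 662 RPM at 13-16 h, and 95.7, 30.4 and 620 RPM at 9-12 h. How many of these neighbours are copies of the same gene, between which reads can be split or shared, was not tested.

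The longest falling run held 6 TSCs at 3L:14257524-14289694, 1 of them unassigned and 1 listed under several genes. Together they had 139, 108 and 62.2 RPM at 13-16 h, against 3509, 2173 and 737 RPM at 9-12 h. At 2R:12097803-12132111, 4 TSCs of 4 genes had 28.3, 19.4 and 7.51 RPM at 13-16 h, against 723, 448 and 222 RPM at 9-12 h. At 3R:20033369-20052433, 4 TSCs of 4 genes had 0.590, 0 and 0.683 RPM at 13-16 h, against 19.9, 56.8 and 48.7 RPM at 9-12 h, with a mean of 1.93 RPM at 6-9 h. These last promoters were thus active for a short time only, in and next to the earlier window. Runs were sought after the calls were known and are given as a description.

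A gene can also move its signal between promoters. Of 7419 genes with a tested TSC, 1496 had at least 2, and 542 of these had a called TSC. In 65 genes 2 or more TSCs rose and none fell, in 78 genes 2 or more fell and none rose, and in 12 genes a TSC rose while another fell. The balance of the strongest TSC against the sum of the others changed in 93 of the 1496 genes (6.22% of those tested), toward the strongest TSC in 31 (2.07%) and away from it in 62 (4.14%), in limma at an adjusted p of 0.05. This count depended on the hours used: in limma it was 136 without 13-14 h, 96 without 11-12 h, 1 without 10-11 h, and 0 without 14-15 h, 15-16 h or 9-10 h, where 277, 275 and 234 genes had an unadjusted p under 0.05 and the lowest adjusted p was 0.0692. No count-based test was run on the balance, and 12 of the 93 genes hold a peak that is also listed for another gene.

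The largest change by the naming rule was that of a gene on 2R with promoters at 5672586-5672729 and 5843162-5843374, on the minus strand. The first had 4.13, 3.52 and 12.6 RPM at 13-16 h, against 422, 348 and 58.1 RPM at 9-12 h. The other had 11.8, 22.9 and 4.10 RPM at 13-16 h, against 5.87, 5.62 and 10.5 RPM at 9-12 h. This other peak is also listed for a different gene, so that its reads cannot be given to either. The first promoter thus gave 25.9%, 13.3% and 75.5% of the reads listed for the gene at 13-16 h, against 98.6%, 98.4% and 84.7% at 9-12 h, and the change of the log2 ratio was -5.44 ± 1.15 (SE, limma adjusted p = 0.0335). The shares of the 15-16 h and 11-12 h samples had 95% Wilson intervals of 61.9% to 85.4% and 77.6% to 89.9%, which overlap.

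A switch in both promoters was seen at a gene on 3L with a 29 bp TSC at 6074395-6074423 and an 11 bp TSC at 6078713-6078723, on the plus strand. The first had 27.1, 15.0 and 15.4 RPM at 13-16 h, against 1.86, 1.12 and 7.33 RPM at 9-12 h. The other had 2.95, 3.52 and 3.42 RPM at 13-16 h, against 21.8, 20.2 and 8.90 RPM at 9-12 h. The first promoter rose (2.39 on the log2 scale, limma adjusted p = 0.0180) and the other fell (-1.98, adjusted p = 0.0190), so that the first gave 90.2%, 81.0% and 81.8% of the reads at 13-16 h, against 7.86%, 5.26% and 45.2% at 9-12 h (change of the log2 ratio 4.37 ± 0.79, adjusted p = 0.0252).

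At a gene on 2L (minus strand) the promoter at 3070154-3070303 had 14.2, 8.80 and 3.07 RPM at 13-16 h, against 63.3, 67.8 and 39.3 RPM at 9-12 h, while that at 3085841-3085924 had 14.2, 59.9 and 34.2 RPM at 13-16 h, against 6.80, 10.4 and 32.5 RPM at 9-12 h. At another on 2R (minus strand) the promoter at 17212176-17212332 had 86.1, 41.4 and 13.3 RPM at 13-16 h, against 159, 112 and 108 RPM at 9-12 h, and that at 17223269-17223295 rose, with 45.4, 39.6 and 50.9 RPM at 13-16 h, against 6.97, 11.5 and 10.5 RPM at 9-12 h. In both the stronger promoter lost its lead by 15-16 h, with 8.26% and 20.7% of the reads, and the log2 ratio changed by -3.88 ± 0.95 and -3.88 ± 0.71 (SE, limma adjusted p = 0.0479 and 0.0252). For all 4 genes the call was lost without 14-15, 15-16, 9-10 or 10-11 h, and for the first also without 13-14 h, with adjusted p between 0.0143 and 0.169.

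**Figure D5:**
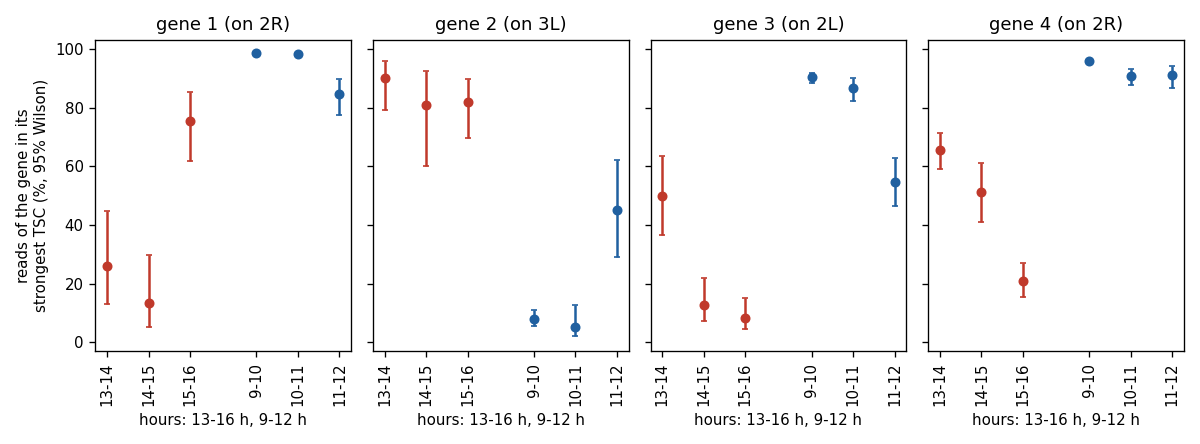
Share of a gene's reads (%) that came from the stronger of its 2 tested TSCs in 4 genes, with 13-16 h samples in red left of 9-12 h samples in blue; bars are 95% Wilson intervals on reads. In gene 2 the share was at least 81.0% in the 13-16 h samples and at most 45.2% in the 9-12 h samples, and in genes 1, 3 and 4 it was lower in the 13-16 h samples.

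The gene table gave a similar count. Of 7096 genes with a mean of at least 2 RPM, 650 rose (9.16% of those tested) and 821 fell (11.6%), 20.7% in all, in limma at an adjusted p of 0.05. As for TSCs, the split moved with scaling, with 722 that rose (10.2%) and 527 that fell (7.43%) under TMM, 17.6% in all, 739 and 418 with DESeq2 size factors and 742 and 326 in edgeR. Leaving out 1 hour gave between 235 and 704 genes that rose and between 138 and 2165 that fell, the lowest counts without 15-16 h. The table held 80.3%, 77.8% and 67.2% of the reads in TSCs of the 13-16 h samples and 82.1%, 81.6% and 83.4% of those of the 9-12 h samples.

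Whole samples were compared by 3 summaries, of which none passed the test. The 10 strongest TSCs of a sample held 12.1%, 17.5% and 24.4% of reads at 13-16 h (18.0% ± 6.19, SD, n = 3), against 11.5%, 9.31% and 11.8% at 9-12 h (10.9% ± 1.35, SD, n = 3). The windows did not overlap, and the two-sided exact permutation test gave p = 0.1, the smallest that 3 against 3 samples allow (adjusted p = 0.3 over the 3 summaries); without 15-16 h the difference was 3.91 percentage points. Unassigned TSCs held 13.3%, 13.6% and 12.3% of reads at 13-16 h and 13.6%, 14.9% and 13.9% at 9-12 h, and the windows overlapped (exact permutation p = 0.2, adjusted p = 0.3). Those on placed chromosomes alone held 5.79%, 6.27% and 5.66% at 13-16 h and 5.90%, 6.31% and 5.86% at 9-12 h. The rest lay on unplaced scaffolds. With every sample thinned to 1135813 reads, 11769, 11107 and 10218 TSCs had at least 3 reads at 13-16 h, against 11430, 11664 and 11751 at 9-12 h. These windows overlapped (exact permutation p = 0.4, adjusted p = 0.4). At a minimum of 1 read the counts were 16341, 15323 and 14896 at 13-16 h, against 17406, 17071 and 16861 at 9-12 h, which did not overlap (exact permutation p = 0.1, the smallest possible).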

How the data were processed

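Of 22 hourly samples of whole D. simulans embryos, 6 were compared: 3 of 13-16 h and 3 of 9-12 h. Per the labels and the study's methods, each sample was barcoded at reverse transcription and all were pooled into 1 library. The authors mapped reads with STAR (version not given in the sources used here) to FlyBase r1.4, called TSCs on the pooled series with their own peak caller, removed peaks over rDNA repeats and deposited RPM for 25410 TSCs and for 8460 genes. The deposited score of each TSC was not used, nor was a smoothed table made for comparing species. How reads from near-identical genes were treated is not known here.

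RPM values were whole multiples of the value of 1 read: 100% came out whole within 0.05 of a read in both tables, which gave reads and depth. As planned for RPM, limma 3.58.1 (R 4.3.3) with its trend option tested log2(RPM + 1) for features with a mean of at least 2 RPM; changes on this scale are understated for weak TSCs. Promoter balance was log2 of the strongest TSC plus 1 over the sum of the gene's other tested TSCs plus 1. Adjusted p-values are Benjamini-Hochberg over all features tested, with a threshold of 0.05. Alternatives were edgeR 4.0.16 and DESeq2 1.42.0 on recovered reads, other scalings, pseudocounts and filters, thinning, the hour within a window as a covariate, leaving out each hour and, added after seeing the data, keeping each peak once where it was listed for several genes. Floors are 3 reads, and intervals are 95% Wilson unless named; both cover counting error only. Named TSCs were called, changed by at least 1 on the log2 scale, had a mean of at least 10 RPM and windows that did not overlap: the 8 gene-assigned TSCs with the largest RPM difference and the 4 with the largest log2 change in each direction, 3 unassigned TSCs in each direction, and the 4 genes with the largest balance change whose strongest TSC and sum of others each averaged at least 10 RPM. Members and lists were chosen with earlier results of these data known. Planned lists of muscle, synapse, cuticle, neuroblast, junction, haemocyte and glia genes could not be used: of the gene numbers in both tables, 0 were found among the RefSeq genes of Prin_Dsim_3.1. The limma and edgeR fits were tested on simulated data.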

Additional observations from a re-analysis of the deposited data

Results flagged for a closer look

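The 12-13 h sample, which the comparison left out, held 142 TSCs whose 95% Wilson interval lay above those of all 6 windowed samples. They took 14.4% of its reads, and 24 had no gene assignment, as had 8040 of the 25410 listed TSCs. Of the 115 that were tested 3 rose and 2 fell, where 8.97% of all tested TSCs rose and 10.5% fell. Since these TSCs were chosen by their 12-13 h level against both windows, the counts are a description. The strongest was 3R:4813139-4813267 (minus strand), with 28497 RPM at 12-13 h (interval 27928 to 29077). In the windows it had 21251, 19538 and 18068 RPM at 13-16 h, against 24156, 10217 and 21022 RPM at 9-12 h. The TSC at 3L:3628547-3628743 (plus) had 25914 RPM at 12-13 h (25372 to 26468), with 16993, 11250.1 and 8920 RPM at 13-16 h and 3215, 5761 and 11789 RPM at 9-12 h. The TSC at 3L:9583723-9583801 (minus) had 15399 RPM at 12-13 h (14979 to 15829), with 11009.5, 1374 and 63.2 RPM at 13-16 h and 309, 572 and 5841 RPM at 9-12 h. In the last 2, values stood higher in each successive hour up to 12-13 h and lower in each hour after it, and neither passed the test between windows (log2 changes 0.99 and -0.03, limma adjusted p = 0.189 and 0.990). The sample had 322564 reads, where 1 read was worth 3.10 RPM.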

How the results depend on the processing

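Counts of calls and their split between directions moved with the processing. For TSCs, 1319 were called without a filter on low values (652 rose, 667 fell) and 1425 at a mean of at least 10 RPM (609 and 816); DESeq2 on recovered reads had 1834 that rose and 840 that fell, edgeR 775 that fell and DESeq2 size factors 591 that fell. Leaving out 1 hour gave 615 to 4292 called TSCs (382 to 1186 rose, 210 to 3106 fell) and 373 to 2861 genes (235 to 704 rose, 138 to 2165 fell). For genes, 426 rose at a mean of at least 10 RPM and 1122 in DESeq2; 527 fell with TMM, 418 with DESeq2 size factors, 326 in edgeR and 465 in DESeq2. Balance calls were 161 with a pseudocount of 4 RPM (53 toward the strongest TSC, 108 away), 175 without a filter (72 and 103), 35 with samples thinned to equal depth (10 and 25), and 0 to 136 without 1 hour (0 to 44 toward, 0 to 92 away). The cause of these shifts was not tested, beyond the fewer samples or features that a setting uses. No named TSC reversed, which the naming rule left little room for. Of 476 values of named TSCs under alternatives, 39 passed from called to not called. No paired analysis was possible because the labels give the samples no shared replicate numbers. The shallowest of the 6 samples had 1135813 reads, so that TSCs under 2.64 RPM rest on fewer than 3 reads there. Without 1 hour, the difference in the share of the 10 strongest TSCs was 3.91 to 10.1 percentage points, in unassigned TSCs -1.34 to -0.678 percentage points, and in the number of TSCs detected -952.5 to -177.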
